A study of Homo sapiens with 23 samples.

Results

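Metallothionein transcripts were followed in MCF10A human mammary epithelial cells that carried an engineered ErbB2 or did not, in flat and in three-dimensional culture. The members were the probes that the platform annotation assigns to MT1A, MT1E, MT1F, MT1G, MT1H, MT1M, MT1X or MT2A. The array lists 9 such probes among its 48803, for 7 of the 8 genes, and no probe is listed for MT1A. A probe was taken as detected on an array when its detection p-value, which sets it against the negative controls of that array, was under 0.05. Of the 9 probes 7 were detected on at least 5 arrays, and they stand for 6 genes: MT2A, MT1E (by a pair of probes), MT1F, MT1G, MT1H and MT1X. The MT1M probe and a further MT1H probe were detected on 0 of 23 arrays. Of the 7 probes 5 were detected on all 23 arrays. The MT1H probe and the second MT1E probe were dim and passed the filter mainly through the groups where they were high. Counts are therefore given over the other 5, except where all 7 are stated.

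Metallothioneins are small cytosolic proteins, rich in cysteine, that bind zinc, copper and cadmium through their thiol groups. They buffer the zinc available to other proteins and take up toxic metals and oxidants. In human cells MT2A and the MT1 genes are switched on by zinc and cadmium through the metal-sensing factor MTF1, which binds short metal response elements (MREs) upstream of them. MT2A is also a classic target of the glucocorticoid receptor and of AP-1. The MT1 genes arose by tandem duplication and stay close in sequence, so a probe designed for one can take up transcript of another. The sequences of the probes were not used here, and how far any probe reads its neighbours was not tested.

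MCF10A is an immortalised, non-tumorigenic line with basal mammary features. The groups were MCF10A/ErbB2* cells in 3D (6 arrays), MCF10A/ErbB2* cells in 2D (6 arrays), MCF10A WT cells in 3D (5 arrays) and MCF10A WT cells in 2D (6 arrays), 1 array per sample. They are called ErbB2* 3D, ErbB2* 2D, WT 3D and WT 2D. The labels describe neither the ErbB2* construct nor the culture media, and they name 1 ErbB2* line, so effects of the engineered gene and other differences between the lines cannot be told apart. They do not say that replicates came from separate cultures, so each p-value reflects only the spread among these arrays, part of which may be technical. In bulk RNA of this kind fewer cells with a transcript and less of it per cell cannot be told apart.

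One array stood apart. WT 3D replicate 5 had a mean signal of 150.6 units with 19.1% of probes detected, against 333.6 to 581.6 units and 30.9% to 34.6% on the other 22 arrays. Its cell line field also names ErbB2*, against the WT of its title, source and description. Every comparison of the members and of the gene lists was therefore fitted with and without it. The group levels, the marker sums and the fold bounds of dim probes include it. Of 3 probes for ERBB2 all arrays detected 1, whose log2 signal averaged 8.04 ± 0.25 in ErbB2* 3D, 8.67 ± 0.12 in ErbB2* 2D, 8.36 ± 0.22 in WT 3D and 8.68 ± 0.14 in WT 2D (SD, n = 6, 6, 5 and 6). The sources used here do not say whether that probe reads the engineered gene. Of 10 basal and epithelial markers 7 had a probe, and KRT5, KRT14, CDH3, EGFR, ITGB4, SFN and KRT18 all passed the detection filter. The scanner signal of that list summed to 8942 to 16750 in ErbB2* 3D and 7847 to 11360 in ErbB2* 2D. It was 4077 to 23690 in WT 3D and 13650 to 18920 in WT 2D. Of 6 fibroblast markers COL1A1, DCN and LUM passed it, COL3A1 was below background on every array, and the summed scanner signal of the list was 11100 to 16500 in ErbB2* 3D, 7652 to 12390 in ErbB2* 2D, 1292 to 5378 in WT 3D and 3857 to 5349 in WT 2D. Of the leukocyte markers with a probe only CD14 passed, ITGAM was below background on every array, and the list summed to 2075 to 2783 in ErbB2* 3D, 2766 to 3956 in ErbB2* 2D, 1077 to 1690 in WT 3D and 1306 to 1670 in WT 2D. Of 3 endothelial markers PECAM1 passed, while CDH5 and VWF were below background on every array. That list summed to 349.3 to 464.8 in ErbB2* 3D, 399.3 to 506.2 in ErbB2* 2D, 268.4 to 373.1 in WT 3D and 301.5 to 375.3 in WT 2D. The part of these lists in the metallothionein results was not tested.

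All 8 genes lie in 1 cluster on chromosome 16 that spans 75.6 kb in RefSeq's GRCh38.p14 annotation. Along it stand MT2A (chr16:56608584-56609497), MT1E (chr16:56625781-56627112), MT1M (chr16:56632659-56633981), MT1A (chr16:56638666-56640087), MT1F (chr16:56657959-56659303), MT1G (chr16:56666730-56668065), MT1H (chr16:56669814-56671129) and MT1X (chr16:56682470-56684196). Each is a short gene of 914 to 1727 bases. The RefSeq promoter table held 3 of the 8 members. The 250 bases before the start site of each are shown because they carry the response elements through which metals act on these genes, and MT2A, MT1X and MT1H differed in the results that follow. Capitals mark every match to the MRE core, TGCACNC or TGCGCNC on either strand (as GNGTGCA or GNGCGCA when read on the strand shown).
MT2A, chr16:56608334-56608583, plus strand: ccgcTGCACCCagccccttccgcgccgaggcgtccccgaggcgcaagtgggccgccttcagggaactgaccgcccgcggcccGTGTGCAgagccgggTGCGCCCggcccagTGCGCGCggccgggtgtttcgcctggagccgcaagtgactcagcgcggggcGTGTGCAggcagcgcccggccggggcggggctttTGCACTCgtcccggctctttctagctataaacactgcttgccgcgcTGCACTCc
MT1X, chr16:56682220-56682469, plus strand: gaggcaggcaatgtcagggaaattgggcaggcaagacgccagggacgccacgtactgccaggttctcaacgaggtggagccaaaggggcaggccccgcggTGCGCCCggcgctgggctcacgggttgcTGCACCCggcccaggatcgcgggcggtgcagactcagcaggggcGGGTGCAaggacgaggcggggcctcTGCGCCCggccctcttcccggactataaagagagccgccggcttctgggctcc
MT1H, chr16:56669564-56669813, plus strand: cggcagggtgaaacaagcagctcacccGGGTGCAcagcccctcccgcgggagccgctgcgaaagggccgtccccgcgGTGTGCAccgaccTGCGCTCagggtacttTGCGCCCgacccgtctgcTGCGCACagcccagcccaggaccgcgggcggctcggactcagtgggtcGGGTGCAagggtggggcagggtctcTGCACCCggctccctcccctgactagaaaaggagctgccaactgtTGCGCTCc
The MT2A window held 7 matches, the MT1X window 4 and the MT1H window 8. Of all 35116 promoter windows of this length 24.8% held at least 1 match, 0.37% held at least 4, 0.0313% at least 7 and 0.0171% at least 8. A match to the AP-1 motif TGANTCA stood in MT2A at positions -104 to -98 from the start site, and none stood in the MT1X or MT1H window; 6.57% of all windows hold 1 or more. The antioxidant response element core TGACNNNGC matched in MT2A at -104 to -96, over the AP-1 match, and in MT1X at -243 to -235 on the reverse strand, against 10.9% of all windows. A match at -53 to -47 was shared by MT1X and MT1H and lay 1 base away in MT2A, at -54 to -48. In a global alignment the MT1H and MT1X windows were identical at 62.9% of the aligned columns, MT1X and MT2A at 55.3%, and MT1H and MT2A at 55.2%.

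**Figure D1:**
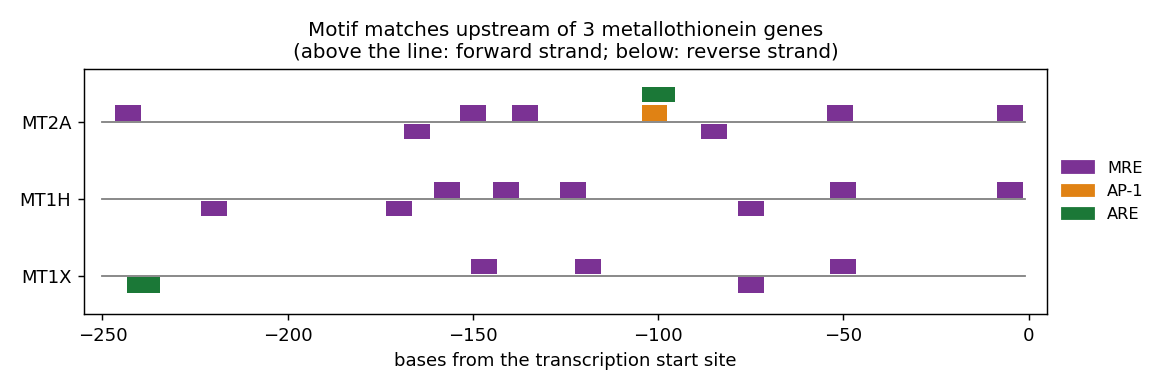
Matches to the MRE, AP-1 and ARE (antioxidant response element) motifs in the 250 bases before the start sites of MT2A, MT1H and MT1X, drawn to scale; the horizontal axis is the distance from the start site in bases. Boxes above a line are on the forward strand and boxes below it on the reverse strand. MRE matches number 7, 8 and 4 from top to bottom, and the AP-1 match stands in MT2A.

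Values below are log2 signals after background correction and quantile normalisation between arrays. Differences come from a linear model (limma) of the 4 groups fitted to all 17689 probes that passed the detection filter, with two-sided p-values adjusted by Benjamini-Hochberg over those probes and a threshold of 0.05. A level of one probe is not set against that of another, since probes bind with different strength.

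MT2A is the isoform with the most transcript in many human cell types. Its probe (ILMN_1686664) was near the top of the signal range on every array, with 21 to 87 probes brighter than it on the 22 arrays without WT 3D replicate 5. There its scanner signal was 23753 to 34961 units, where the brightest probe of an array stood at 32008 to 47190, and whether its differences were compressed near that ceiling was not tested. The log2 signal had a lowest, median and highest value of 14.61, 14.73 and 14.83 in ErbB2* 3D and of 14.53, 14.75 and 14.83 in ErbB2* 2D. In WT 3D the 5 arrays gave 14.78, 14.63, 14.54, 14.70 and, on replicate 5, 14.82, and WT 2D gave 14.63, 14.77 and 14.93. The 4 groups overlapped throughout and spanned 0.40 log2 units from the lowest to the highest array. No comparison passed the test: the difference was -0.06 between the lines in 2D (SE 0.09, adjusted p = 0.813), 0.03 in 3D (SE 0.09, adjusted p = 0.826), -0.09 between 3D and 2D in WT cells (SE 0.09, adjusted p = 0.481) and 0.01 in ErbB2* cells (SE 0.09, adjusted p = 0.983). With that array left out these differences were -0.06, 0.06, -0.12 and 0.01. Within WT 2D, replicates 1, 5 and 6 lay between 14.63 and 14.69 and replicates 2, 3 and 4 between 14.84 and 14.93, which is a description of these arrays.

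MT1E, the neighbour of MT2A in the cluster, was lower in 3D than in 2D in both cell lines. Its first probe (ILMN_2173611) was bright on all arrays, with a lowest, median and highest log2 signal of 13.84, 14.02 and 14.11 in ErbB2* 3D and of 14.55, 14.69 and 14.77 in ErbB2* 2D. In WT 3D it stood at 14.09, 14.02, 14.09, 14.04 and, on replicate 5, 14.01, and in WT 2D at 14.53, 14.58 and 14.64. Every 3D array lay below every 2D array. The drop was 1.60-fold in ErbB2* cells (log2 change -0.67, SE 0.07, adjusted p = 3.5e-07) and 1.45-fold in WT cells (log2 change -0.53, SE 0.08, adjusted p = 1.96e-05). Within a culture type the lines overlapped, with a difference of 0.09 in 2D (adjusted p = 0.604) and -0.05 in 3D (adjusted p = 0.679), and the culture changes of the lines differed by -0.14 (adjusted p = 0.447). The first probe was near the top of the signal range as MT2A was, with 46 to 190 probes brighter on the 22 arrays without WT 3D replicate 5. Its scanner signal reached 32963 units in ErbB2* 2D, and whether its differences were compressed near the ceiling was not tested.

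The second MT1E probe (ILMN_1718968) was dim and gave the same directions. It was detected on 1 of 6 arrays in ErbB2* 3D, on 6 of 6 in ErbB2* 2D, on 1 of 5 in WT 3D and on 6 of 6 in WT 2D. Its log2 signal was 4.94 ± 0.16 in ErbB2* 3D against 6.28 ± 0.31 in ErbB2* 2D (SD, n = 6 each), and 4.93 ± 0.57 (SD, n = 5) in WT 3D against 6.09 ± 0.35 (SD, n = 6) in WT 2D. Because the 3D values were mostly below background they bound the change, which was at least 2.14-fold lower in ErbB2* cells and at least 1.32-fold lower in WT cells. These bounds were not tested. The fit itself gave log2 changes of -1.34 (adjusted p = 4.11e-05) and -1.16 (adjusted p = 3.92e-04), which rest in part on values below background. The bound sets the 2D mean against the 3D mean in which an array takes the lowest detected signal where that is higher than its own. On WT 3D replicate 4, the 1 array of its group with the probe detected, the signal was 5.93, and it lay within the range of WT 2D. Of the 14 arrays that detected this probe 12 were in 2D culture, so it entered the test through the 2D groups.

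MT1F separated ErbB2* 2D from all other arrays. Its probe (ILMN_1718766) was detected on all 23 arrays, with a lowest, median and highest log2 signal of 8.44, 8.63 and 8.74 in ErbB2* 3D and of 10.04, 10.17 and 10.25 in ErbB2* 2D. WT 3D gave 8.89, 8.93, 8.94, 8.97 and, on replicate 5, 9.57, and WT 2D gave 8.72, 8.92 and 9.22. ErbB2* 2D stood above all other arrays, ErbB2* 3D lay below every WT 3D array and met WT 2D only at its highest array, and the WT groups overlapped. In 2D culture MT1F was 2.32-fold higher in ErbB2* than in WT cells (log2 difference 1.22, SE 0.11, adjusted p = 3.19e-08). Between culture types it fell 2.95-fold in ErbB2* 3D relative to ErbB2* 2D (log2 change -1.56, SE 0.11, adjusted p = 4.51e-10). In WT cells the 3D minus 2D difference was 0.11 (SE 0.12, adjusted p = 0.503), and the culture changes of the lines differed by -1.67 (SE 0.16, adjusted p = 1.5e-07). In 3D culture MT1F was lower in ErbB2* than in WT cells by the main scaling (log2 difference -0.46, SE 0.12, adjusted p = 0.00855), and the direction turned when all 23 arrays were scaled to a common median instead (0.14, adjusted p = 0.75). That difference was -0.33 (adjusted p = 0.0131) by the main scaling and -0.28 (adjusted p = 0.209) by the median, once WT 3D replicate 5 was left out. The interaction was also not called by median scaling of all 23 arrays (-1.31, adjusted p = 0.0759), and was called without replicate 5 by the main scaling (-1.55, adjusted p = 3.99e-09).

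MT1H, which lies in the cluster beyond MT1F and MT1G, was seen mainly in ErbB2* 2D. Its probe (ILMN_2124802) was detected on 0 of 6 arrays in ErbB2* 3D, 6 of 6 in ErbB2* 2D, 0 of 5 in WT 3D and 1 of 6 in WT 2D. The log2 signal had a lowest, median and highest value of 4.66, 4.77 and 5.14 in ErbB2* 3D and of 5.30, 6.07 and 6.26 in ErbB2* 2D. It was 5.00, 4.84, 4.74, 4.68 and, on replicate 5, 4.76 in WT 3D, and 4.67, 4.80 and 5.35 in WT 2D. ErbB2* 2D lay above both 3D groups, and 1 of its arrays (5.30) fell just under the highest WT 2D array. MT1H was at least 1.68-fold higher in ErbB2* 2D than in WT 2D and at least 1.68-fold lower in ErbB2* 3D than in ErbB2* 2D. These bounds were not tested. The fit itself gave log2 differences of 1.03 (adjusted p = 2.99e-05) and -1.08 (adjusted p = 1.26e-05), which rest in part on values below background. In 3D both lines were below background, and no fold is given there or for the interaction. The probe passed the detection filter through ErbB2* 2D, which held 6 of the 7 arrays that detected it, so its differences restate that pattern of detection. The other MT1H probe (ILMN_1683923) was not detected on any array, so MT1H rests on 1 dim probe of a gene whose relatives are close in sequence.

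MT1X, at the far end of the cluster, was lower in 3D culture in both lines. Its probe (ILMN_1775170) had a lowest, median and highest log2 signal of 13.09, 13.16 and 13.47 in ErbB2* 3D and of 14.15, 14.31 and 14.43 in ErbB2* 2D. WT 3D gave 13.09, 12.96, 12.96, 12.90 and, on replicate 5, 10.67, and WT 2D gave 13.63, 13.78 and 13.91. The 3D and 2D arrays of a line did not overlap, and in 2D every ErbB2* array lay above every WT array. The scanner signal reached 27166 units in ErbB2* 2D, and whether differences were compressed near the ceiling was not tested. MT1X fell 2.10-fold in ErbB2* 3D relative to ErbB2* 2D (log2 change -1.07, SE 0.27, adjusted p = 0.00627). In WT cells the change was -1.25 (SE 0.28, adjusted p = 0.0023), and without replicate 5 it was -0.79 (SE 0.10, adjusted p = 9.69e-07). Between the lines in 2D the difference was 0.53, which did not pass with 23 arrays (SE 0.27, adjusted p = 0.282) and passed without WT 3D replicate 5 (0.53, SE 0.09, adjusted p = 6.66e-05) or when fitted to the 2D arrays alone (adjusted p = 6.17e-04), by array weights (0.51, adjusted p = 3.08e-04) and on the deposited log2 values (0.56, adjusted p = 1.53e-06). WT 3D replicate 5 belongs to neither 2D group, but with 23 arrays it enters the shared estimate of the spread. In 3D the difference was 0.72 (adjusted p = 0.085), and 0.25 (adjusted p = 0.0604) without replicate 5; on the deposited values it was 0.33 and passed (adjusted p = 0.00164). On that array the scanner signal of MT1X was 274.3 units, against 7019 to 9637 on the other WT 3D arrays, while in the authors' deposited table it stood at 12.54, against 12.76 to 12.92.

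MT1G, between MT1F and MT1H, changed less. Its probe (ILMN_1715401) had a lowest, median and highest log2 signal of 10.34, 10.70 and 10.94 in ErbB2* 3D and of 10.86, 10.92 and 11.05 in ErbB2* 2D. WT 3D gave 10.30, 10.30, 10.51, 10.55 and, on replicate 5, 12.06, and WT 2D gave 10.76, 10.89 and 11.45. Apart from replicate 5, which was above all other arrays, the WT 3D arrays lay below every 2D array of either line. No MT1G comparison passed with 23 arrays by the main scaling; the 3D minus 2D difference was -0.28 in ErbB2* cells (SE 0.21, adjusted p = 0.462) and -0.24 in WT cells (SE 0.22, adjusted p = 0.46). The WT difference was -0.56 and passed once WT 3D replicate 5 was left out (SE 0.13, adjusted p = 0.00144), and the ErbB2* difference did not (-0.28, adjusted p = 0.0662). With all 23 arrays the WT difference also passed by median scaling (-0.65, adjusted p = 0.0363), on the deposited values (-0.43, adjusted p = 0.00253) and by array weights (-0.56, adjusted p = 8.26e-04), and the ErbB2* difference passed by array weights (-0.30, adjusted p = 0.0345). Between the lines in 2D MT1G differed by -0.03 (adjusted p = 0.975). In the authors' deposited table replicate 5 stood at 10.82, against 10.29 to 10.51 on the other WT 3D arrays.

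**Figure D2:**
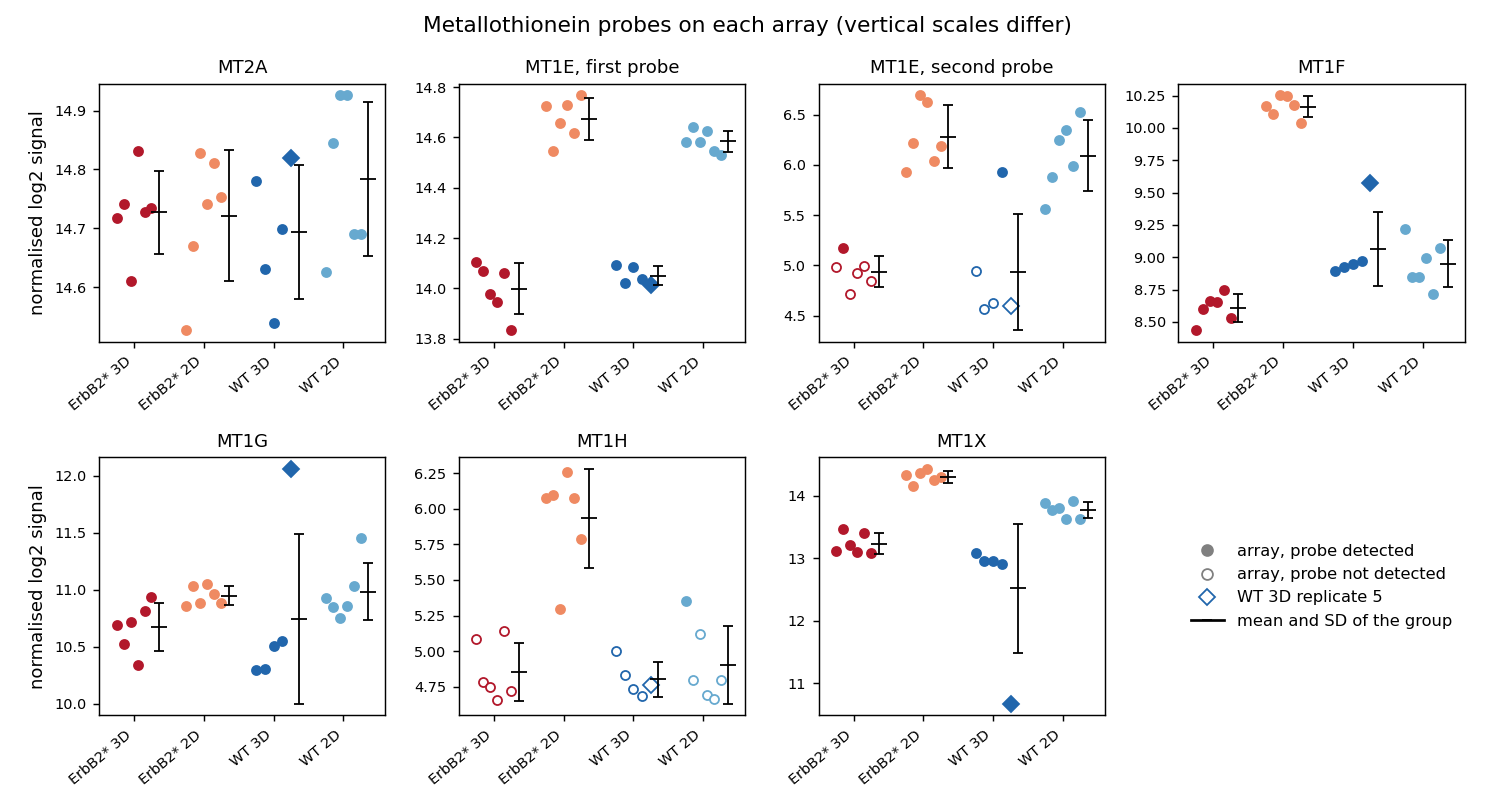
Normalised log2 signal of the 7 detected metallothionein probes on each of the 23 arrays, by group; each point is an array, filled where the probe was detected, and the bar beside each group is its mean and SD. The diamond is WT 3D replicate 5, which lies at 10.67 for MT1X and 12.06 for MT1G, away from the rest of its group; MT1F stands highest in ErbB2* 2D, and the MT2A groups overlap.

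Of the 5 probes detected on all arrays, MT1F was higher in ErbB2* than in WT cells in 2D, 1 of 5, where 9.96% of all 17689 probes passed in either direction. MT1X joined it when WT 3D replicate 5 was left out, 2 of 5, where 19% of 17577 probes passed. The dim MT1H probe was also called and the dim MT1E probe was not. In 3D 1 of 5 passed, MT1F, which was lower in ErbB2* cells, against 17.6% of all probes, and the same 1 without replicate 5, against 23.4%. By median scaling 0 of 7 member probes passed in 3D (2 at an unadjusted p under 0.05), where 1555 of all probes were called higher and 192 lower. Fitted to the 3D arrays alone, MT1F missed the threshold (-0.46, adjusted p = 0.0666).

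Between culture types 2 of the 5 probes fell in WT cells in 3D relative to 2D, the first MT1E probe and MT1X, where 23.5% of all probes passed in either direction. Without replicate 5 they were 3 of 5, with MT1G, where 28.4% passed. In ErbB2* cells 3 of 5 fell, the first MT1E probe, MT1F and MT1X, where 17.9% of all probes passed, and the count was 3 of 5 again without WT 3D replicate 5, where 31.4% passed. The dim MT1E probe was called in both lines and the dim MT1H probe in ErbB2* cells. No member rose past the threshold in 3D in either line. By median scaling of all 23 arrays the first MT1E probe lost its call in WT cells (-0.71, adjusted p = 0.0835) and in ErbB2* cells (-0.62, adjusted p = 0.159), MT1X lost its call in WT cells (-1.64, adjusted p = 0.0691) and in ErbB2* cells (-1.09, adjusted p = 0.292), and MT1G gained one in WT cells (-0.65). Once WT 3D replicate 5 was left out, median scaling ended the WT call of the first MT1E probe (-0.31, adjusted p = 0.0912); fitted to WT arrays alone, with replicate 5, MT1X missed the threshold (-1.25, adjusted p = 0.0568).

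The interaction of cell line and culture passed for MT1F, 1 of the 5 probes, where 11.1% of all probes passed, and 17.5% did without WT 3D replicate 5. MT1F fell in 3D in ErbB2* cells, while its difference in WT cells was 0.11, or -0.01 without that replicate, and did not pass. The dim MT1H probe was called as well, with 3 of its 4 groups at or near background. The first MT1E probe (-0.14), MT1X (0.18), MT1G (-0.04) and MT2A (0.10) did not pass, which does not show that their culture changes were equal in the lines.

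**Figure D3:**
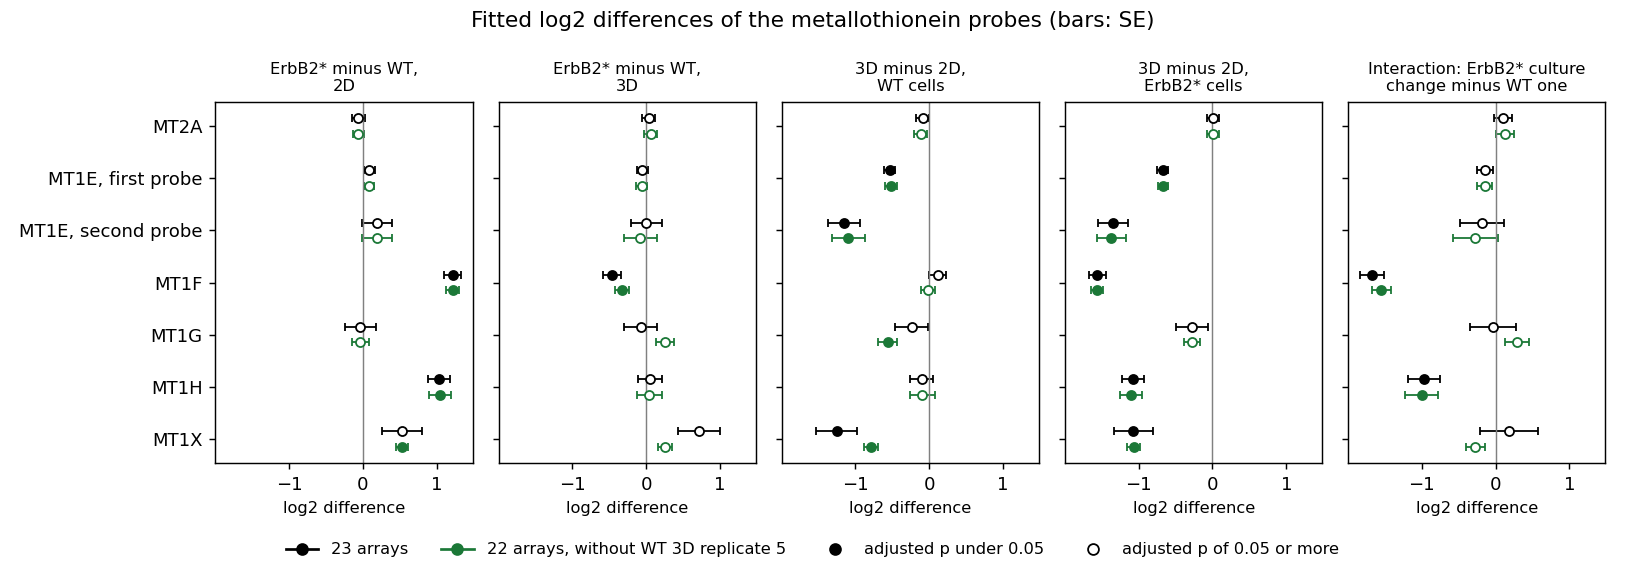
Fitted log2 differences of the 7 metallothionein probes in the 5 comparisons, with SE as bars, over 23 arrays (black) and over the 22 arrays without WT 3D replicate 5 (green); filled points have an adjusted p under 0.05. MT1F is at 1.22 between the lines in 2D and at -1.56 between 3D and 2D in ErbB2* cells, while MT2A lies within 0.10 of 0 in every comparison over 23 arrays. Points of MT1H and of the second MT1E probe rest in part on values below background, and the text gives their bounds.

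Genes that move zinc, copper and the glucocorticoid signal were followed beside the family, each by its brightest detected probe, with p-values adjusted over all probes. Of 25 zinc genes, the ZIP importers, the ZnT exporters and MTF1, 18 were tested. Between the lines 1 was higher and 0 lower in ErbB2* cells in 2D (4 passed an unadjusted p under 0.05), where 12.1% of 10954 genes passed. The 1 was SLC39A8, a ZIP importer of zinc, manganese and cadmium, at 10.89 ± 0.24 in ErbB2* 2D and 9.76 ± 0.15 in WT 2D (SD, n = 6 each; log2 difference 1.13, adjusted p = 0.00289). In 3D 3 were higher and 2 lower in ErbB2* cells, where 20.6% of genes passed, led by SLC39A8 at 1.81 (adjusted p = 1.69e-05; 1.40 without WT 3D replicate 5), SLC39A11 at -0.61 and SLC39A3 at -0.58. In WT cells 1 zinc gene rose in 3D and 2 fell, where 27.2% of genes passed. SLC39A11 rose by 0.91, SLC39A8 fell by 0.95 (0.55 without replicate 5), and SLC30A1, the zinc exporter of the plasma membrane and itself a target of MTF1, fell by 0.55. In ErbB2* cells 1 fell, SLC30A5 (-0.32, adjusted p = 0.0271), a zinc carrier of the secretory pathway, where 21% of genes passed. The interaction passed for SLC30A1 (0.66) and SLC39A11 (-0.76), where 13.4% passed. The median log2 change of the 18 genes was 0.08, 0.14, -0.15, 0.03 and 0.21 in these 5 comparisons, against 0.01, 0.04, -0.06, -0.02 and 0.02 over all genes. WT 3D replicate 5 moved the values for 3D between the lines and for the interaction: without it the list's medians were 0.08, 0.02, -0.14, 0.03 and 0.03, against 0.01, -0.01, -0.01, -0.02 and -0.02 over all genes. Without replicate 5 the zinc calls up and down were 2 and 2 between the lines in 2D, where 21.6% of genes passed, 4 and 3 in 3D (26.4%), 1 and 3 between culture types in WT cells (32.1%), 0 and 2 in ErbB2* cells (34.9%), and 2 and 2 in the interaction (20%).

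MTF1, named for its role after its values were seen, averaged 7.61 ± 0.40 in ErbB2* 3D, 7.19 ± 0.14 in ErbB2* 2D, 7.27 ± 0.32 in WT 3D and 7.86 ± 0.62 in WT 2D (SD, n = 6, 6, 5 and 6). It did not pass in any comparison with 23 arrays. Without WT 3D replicate 5 it was lower in ErbB2* than in WT cells in 2D (-0.68, adjusted p = 0.0292), fell in 3D in WT cells (-0.73, adjusted p = 0.0264), and passed in the interaction (1.16, adjusted p = 0.0148).

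All 12 copper genes were tested. Between the lines in 2D 0 of 12 passed with 23 arrays by limma (4 at an unadjusted p under 0.05), where 12.1% of all genes passed. In 3D 2 were higher, where 20.6% passed, so the count is no larger than the background. They were SLC31A1, the copper importer (1.36, adjusted p = 0.0427; 0.60 without replicate 5), and COX11, a copper carrier for cytochrome oxidase (0.73, adjusted p = 0.0118). The COX11 probe was dim, at 5.98 ± 0.18 in ErbB2* 3D and 5.25 ± 0.47 in WT 3D (SD, n = 6 and 5). Its change may rest in part on values near background, and no bound was computed for it. In WT cells 3 rose and 1 fell in 3D, where 27.2% passed, and in ErbB2* cells 2 rose and 1 fell, where 21% passed. The copper chaperone ATOX1 rose in both lines (0.58 in WT cells, 0.65 in ErbB2* cells). In WT cells COMMD1 rose by 0.67 and SCO2 by 0.51, and by 0.36 and 0.33 without replicate 5. SLC31A2 rose by 0.50 in ErbB2* cells, where SCO1 fell by 0.35. In WT cells their changes, named after they were seen, were 0.32 for SLC31A2 (adjusted p = 0.0821) and -0.34 for SCO1 (adjusted p = 0.0214). Without replicate 5 these WT changes were 0.45 (adjusted p = 0.00299) and -0.25 (adjusted p = 0.0474). The interaction passed for 0 of 12 (0 at an unadjusted p under 0.05), where 13.4% passed. Without WT 3D replicate 5 the copper calls up and down were 2 and 1 between the lines in 2D (21.6% of genes passed), 2 and 1 in 3D (26.4%), 5 and 2 between culture types in WT cells (32.1%), 4 and 1 in ErbB2* cells (34.9%) and 0 and 1 in the interaction (20%). CCS, the chaperone of superoxide dismutase, named after its values were seen, was at -0.03 between culture types in WT cells with 23 arrays and at 0.75 without that replicate (adjusted p = 1.65e-04). The median change of the copper list was 0.18, 0.20, 0.02, 0.14 and 0.16 over the 5 comparisons, and 0.18, 0.14, 0.29, 0.15 and -0.01 without it, so 1 array decides the value for culture in WT cells and that for the interaction.

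The glucocorticoid receptor and its targets had 11 of 12 genes tested. In 2D 5 were higher and 1 lower in ErbB2* than in WT cells, where 12.1% of all genes passed, with KLF9 (1.54, adjusted p = 9.22e-10) and ERRFI1 (1.48) higher and SGK1 (-1.21) lower. In 3D 1 was higher, DUSP1 (1.70), and 4 were lower, led by CEBPD (-1.09) and SGK1 (-1.05), where 20.6% passed. In WT cells 6 rose in 3D and 1 fell, where 27.2% passed, with KLF9 at 1.89, TSC22D3 at 1.68 and ERRFI1 at 1.62. In ErbB2* cells 2 rose and 2 fell, where 21% passed, with SGK1 at 1.56, FKBP5 at -0.62 and CEBPD at -0.57. The interaction passed for 7, 1 positive and 6 negative, where 13.4% passed, and the named ones were CEBPD (-1.81), KLF9 (-1.72) and ERRFI1 (-1.59). Without WT 3D replicate 5 the calls up and down were 6 and 1 between the lines in 2D, 1 and 6 in 3D, 8 and 1 between culture types in WT cells, 3 and 2 in ErbB2* cells and 1 and 6 in the interaction, where the shares of all genes are those given for copper. The list's median was 0.28, -0.29, 1.23, 0.29 and -0.97 over the 5 comparisons, and 0.28, -0.47, 1.24, 0.30 and -1.12 without that replicate. Whether glucocorticoid signalling acts on the metallothionein genes in these cells was not tested.

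**Figure D4:**
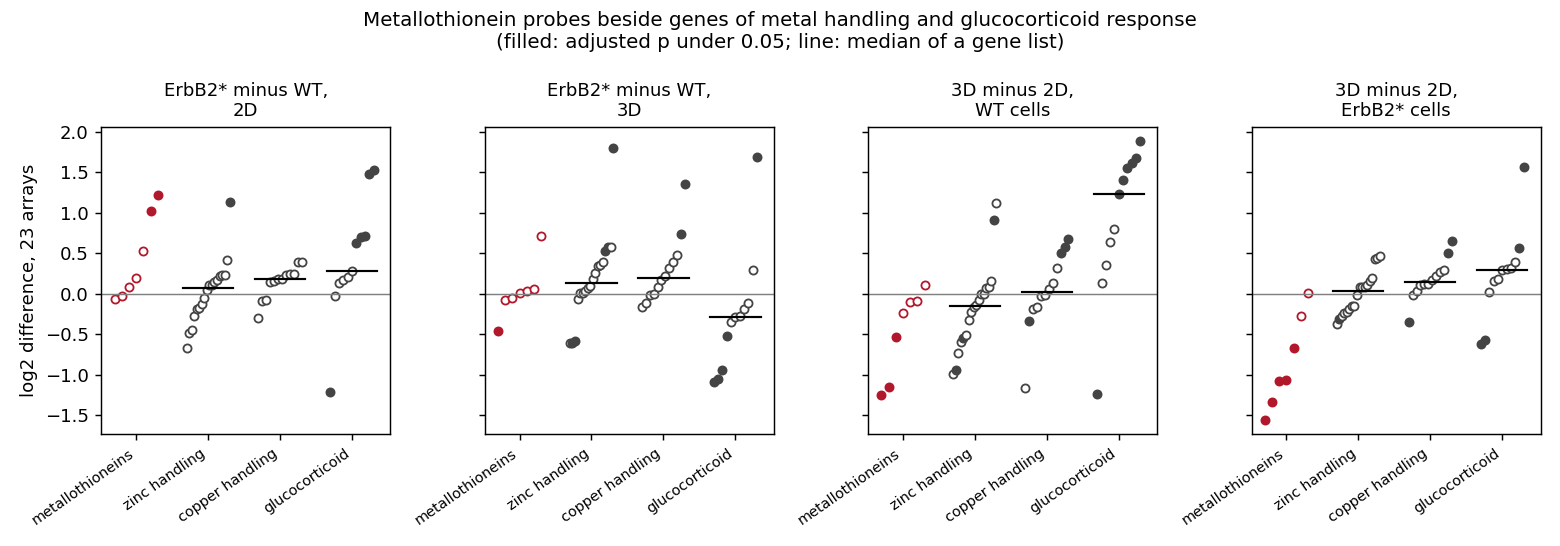
Log2 differences over 23 arrays of the 7 metallothionein probes (red) and of the tested genes for zinc handling, copper handling and glucocorticoid response (grey) in the 4 pairwise comparisons; each point is a probe, filled where the adjusted p is under 0.05, and the line is the median of a gene list. The glucocorticoid median between 3D and 2D is 1.23 in WT cells, and MT1F is the lowest metallothionein point in ErbB2* cells, at -1.56.

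The 4 other metallothionein genes with a probe, MT1B, MT1L, MT3 and MT4, did not pass the detection filter. MT1B and MT3 were detected on 0 arrays, MT4 on 1 and the pseudogene MT1L on 2. The genes whose 4 group means lay closest to the mean of the 6 members, each centred on its own mean, were PCBD2, KLHL13, AAAS, ARID2 and WDR90, with root mean square differences of 0.047 to 0.0532 log2 units over the 4 groups. Without WT 3D replicate 5 they were PFAS, VSNL1, ZNF138, ENO2 and RBBP9 (0.0228 to 0.0492), with no gene in both sets, so the ranking rests on that array. The members' mean itself was -0.26 in ErbB2* 3D, 0.51 in ErbB2* 2D, -0.30 in WT 3D and 0.05 in WT 2D. That mean takes in MT1H, whose dim probe passed the detection filter through ErbB2* 2D. Its height in ErbB2* 2D therefore restates in part that pattern of detection, and no conclusion is drawn from the mean or from the ranking built on it.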

How the data were processed

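Total RNA of 23 MCF10A samples was extracted on RNeasy columns, biotin-labelled with an Illumina TotalPrep kit and hybridised to single-colour Illumina bead arrays, per the labels' protocols. The authors deposited, per the file headers, the average bead signal of each probe on each array, a linear intensity not normalised between arrays, and a detection p-value beside it. A second deposited set of values, normalised by the authors, was read as log2 values, since its slope on log2 of the scanner signals above 1000 units was 0.948 to 1.02 on 22 arrays. The sources used here state neither its normalisation nor the scanning software. WT 3D replicate 5 had a slope of 0.671 and a rank correlation of 0.503 between both tables, against 1 elsewhere.

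From the intensities, neqc of limma corrected the background by normexp (control moments taken from detection p-values, offset 16), normalised by quantiles and took log2 (limma 3.58.1, R 4.3.3, and version 1.17.8 of data.table). Of 48803 probes 28098 had 1 gene symbol in the platform annotation, 13 several and 20692 none listed; 28059 matched a current gene by Entrez ID and 0 symbols were updated. Probes detected (p under 0.05) on at least 5 arrays were kept, 17689 in all, or 17577 without WT 3D replicate 5. A means model of 4 groups with 19 residual degrees of freedom was fitted with lmFit and eBayes. Every adjusted p is from limma by Benjamini-Hochberg. Where a member probe was below background on more than a 0.5 share of a group's arrays, the fold is a bound, as the report describes. No bounds were computed for the gene lists. Bounds were computed with all 23 arrays, and the adjusted p belongs to the fitted change. Promoter windows and gene positions are RefSeq's (GRCh38.p14), searched in Python 3.11.15 with pandas 2.3.3 and Biopython 1.88. The array number limits the precision.

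Groups and replicate numbers came from the sample titles. The members, the gene lists, the markers and the bound's limit were chosen with earlier results of these data known. The rule named every detected member, and of each list the 3 largest changes past the threshold in a comparison. The alternatives were no background correction, normexp with offset 50, scaling to the median, the authors' log2 values, no filter on detection, detection at p under 0.01 on 11 or more arrays, the brightest probe per gene, only the groups compared, array weights, a replicate block and each array left out. Median scaling and the deposited values without WT 3D replicate 5, and the fit relative to MT2A, were added after the data were seen. In data simulated for ErbB2* against WT in 2D over 17689 probes, with 200 changed by 1 log2 unit, 58.5% were recovered and 2.5% of the calls were false. The simulated noise was independent between arrays, with the same SD of a probe in all groups, and held no array like WT 3D replicate 5. These shares therefore test the fit and do not give the error rate of the calls reported here.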

Additional observations from a re-analysis of the deposited data

Results flagged for a closer look

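In the 28 sets of a probe and a group, 4 had an array whose distance to its nearest neighbour was a large share of the group's range by Dixon's limit, and chance flags about 1 group in 20. Of these, 3 were WT 3D replicate 5, the array with the low signal and the conflicting label: its log2 signal was 9.57 for MT1F (nearest array 8.97), 12.06 for MT1G (nearest 10.55) and 10.67 for MT1X (nearest 12.90). Its raw signals were 162.9, 698.2 and 274.3 units. The remaining one was WT 3D replicate 4, at 5.93 for the second MT1E probe (nearest 4.95), the 1 WT 3D array on which that probe was detected.

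The 3D minus 2D change differed between ErbB2* and WT cells for MT1F, by -1.67 (adjusted p = 1.5e-07, interaction in limma). It differed by -1.55 without WT 3D replicate 5. The same interaction for MT1H was fitted at -0.97 (adjusted p = 0.00435, and 0.00274 without that replicate). MT1H was below background on nearly all arrays of 3 groups, and it passed the detection filter through ErbB2* 2D. Its interaction therefore restates that pattern of detection with or without replicate 5, and no conclusion is drawn from its size or its p-values.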

How the results depend on the processing

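Over the member probes, comparisons and alternatives 1208 log2 changes were recomputed. Those relative to MT2A are not among them and follow the others, because MT2A itself differed by at most 0.10 with 23 arrays. Of the 1208, 805 left out 1 array and share most of their data with the main fit, so the totals largely describe those refits. In all 1180 kept their direction and side of the threshold, 9 lost a call, 18 gained one and 1 turned direction. The one that turned was MT1F between the lines in 3D, 0.14 by median scaling against -0.46. The count of member probes called, over all 7, was 2 between the lines in 2D, 3 by the deposited values, by array weights and with only the groups compared, and 1 under the stricter detection filter, which dropped MT1H. In 3D it was 1, against 0 by median scaling, 0 by median scaling without WT 3D replicate 5, 0 with only the groups compared, 2 by the deposited log2 values and 2 by these without replicate 5; leaving out 1 array gave 1 to 2, with MT1X called (0.86, adjusted p = 0.0476) without WT 3D replicate 1. In WT cells it was 3 between culture types, against 2 by median scaling, with only the groups compared and with the brightest probe per gene, 4 by the deposited values and by array weights, and 3 to 4 with 1 array left out. In ErbB2* cells it was 5, against 3 by median scaling, 4 with the brightest probe per gene and under the stricter filter, 6 by array weights and 5 whichever array was left out. The interaction count was 2, against 1 by median scaling and 1 under the stricter filter, and 2 whichever array was left out. The number of all probes called shifted as well, so a member count alone does not set the family apart. Between the lines in 2D, 1023 probes were higher and 738 lower in the main fit. They were 1927 and 1739 by the deposited values and 661 and 214 by median scaling. In WT cells 1880 rose in 3D and 2280 fell, against 270 and 1516 by median scaling. In ErbB2* cells they were 1448 and 1710, against 435 and 869 by median scaling. The cause of these shifts was not tested, except that the stricter filter tests fewer probes.

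Median scaling of all arrays moved the median change of all probes to between -0.31 and 0.35 log2 units over the 5 comparisons. By quantile scaling it was -0.08 to 0.05. Both ends were comparisons that take in WT 3D replicate 5. Without that replicate, median scaling gave 0.03 between the lines in 3D, in place of 0.35. Between culture types in WT cells it gave -0.01, in place of -0.31, and the interaction went from 0.18 to -0.15. The median between the lines in 2D (0.17 and 0.18) and that between culture types in ErbB2* cells (-0.13) hardly moved. Of all called probes 75.5%, 89%, 15.1%, 33.4% and 74.9% were higher in the 5 comparisons by median scaling of all arrays. By quantile scaling they were 58.1%, 54.6%, 45.2%, 45.9% and 48.5%. By median scaling without WT 3D replicate 5 they were 82.6%, 60%, 52.6%, 26.6% and 28.7%. No pairing of samples by replicate number was seen: deviations of the 33 same-numbered pairs correlated at -0.17 to 0.16 (median -0.0038), other pairs at a median of 0.0062. Deviations within WT 3D take in replicate 5, the array that stood apart, so pairs with that group can neither show nor exclude pairing. With the number as a replicate block the counts over all 7 member probes were 2, 1, 3, 5 and 2 again, and no member call changed. No array chip is named in the files used, so the slide block was not run. Low signal over background limits MT1H and the second MT1E probe to bounds.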
